A study of Mus musculus with 6 samples.

Results

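The 10 genes described here encode cornification enzymes, proteases, a protease inhibitor, and secreted or calcium-binding proteins of the suprabasal epidermis. They are Tgm1, Tgm3, Casp14, Asprv1, St14, Prss8, Spink5, Sbsn, Krtdap and Calml3. They were chosen by name, and each matched 1 of the 54532 genes in the deposited table. All 10 were among the 17318 genes that passed a filter on low counts and were tested.

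RNA from ear skin of 3-month-old mice was sequenced in 6 libraries. The 3 CKO libraries came from mice with the genotype Ufl1f/f KRT14Cre/+, in which a Cre driven by the keratin 14 promoter acts in basal keratinocytes and the epithelial cells that descend from them. The 3 CTRL libraries came from mice labelled as carrying either Ufl1f/+ or Ufl1f/f, so floxed alleles were present in both groups, and no Cre is named in their label. Effects of the Cre transgene and of the loss of Ufl1 therefore cannot be told apart. Whole ear skin was used, so fewer cells of a type and less RNA per cell cannot be told apart. Nothing in the labels says that the libraries came from separate animals, and the p-values reflect only the spread among these samples, which may be technical.

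Cornification is the last step of keratinocyte differentiation. Cells that leave the basal layer make structural proteins, cross-link them under the plasma membrane with transglutaminases, process profilaggrin with a set of proteases, and are finally shed when kallikreins cut the junctions between corneocytes. Membrane-bound serine proteases start part of this protease cascade, and the inhibitor LEKTI, the product of Spink5, holds the kallikreins in check.

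Sequences just before the start sites of Sbsn, Krtdap and Casp14 are shown because Sbsn and Krtdap lie in one gene cluster on chromosome 7, on either side of Dmkn, with different library patterns and Casp14 had the largest difference. They are RefSeq sequences of GRCm38.p6, the mm10 assembly, from 250 to 11 bases before the RefSeq start, and hold no annotated exon. That start is the deposited gene start for Sbsn and lies slightly downstream of it for Krtdap and Casp14. Sbsn is chr7:30751221-30751460, plus strand, Krtdap chr7:30787655-30787894, plus strand, and Casp14 chr10:78718304-78718543, minus strand. Capitals mark matches to TGANTCA, the AP-1 motif, or TATAAA, the TATA box.
Sbsn: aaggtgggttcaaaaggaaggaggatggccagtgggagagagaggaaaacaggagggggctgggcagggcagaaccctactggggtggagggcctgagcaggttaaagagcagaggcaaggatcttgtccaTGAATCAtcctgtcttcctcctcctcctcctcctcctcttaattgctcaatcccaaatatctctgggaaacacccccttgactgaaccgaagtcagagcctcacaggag
Krtdap: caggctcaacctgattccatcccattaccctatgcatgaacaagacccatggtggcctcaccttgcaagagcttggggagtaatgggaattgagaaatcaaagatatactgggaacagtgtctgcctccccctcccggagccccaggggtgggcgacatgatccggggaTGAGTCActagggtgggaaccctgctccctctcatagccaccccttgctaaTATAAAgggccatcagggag
Casp14: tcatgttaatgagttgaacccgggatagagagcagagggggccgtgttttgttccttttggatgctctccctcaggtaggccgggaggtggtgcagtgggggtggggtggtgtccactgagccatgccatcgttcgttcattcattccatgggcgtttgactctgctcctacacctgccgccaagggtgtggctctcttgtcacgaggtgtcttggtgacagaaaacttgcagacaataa
In the 6 members matched in the RefSeq table (Tgm1, Tgm3, Casp14, Asprv1, Sbsn and Krtdap), TGANTCA, which reads alike on both strands, was found in 2, Sbsn and Krtdap. It was in 6.69% of the 27018 promoter windows of that length. TATAAA, searched on both strands, was in Tgm3 and Krtdap and in 12.7% of all windows. The GRHL motif AACNNGTT (3.53% of windows) and the pattern TTGCNNCAA (1.72%), both searched on both strands, were in 0 of the 6. No motif match overlapped another.

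No member was called different between CKO and CTRL ears. The edgeR quasi-likelihood test with Benjamini-Hochberg adjustment called 0 of the 10 at an adjusted p under 0.05, beside 0.0173% of all genes tested. DESeq2 called 0, beside 0.526%, limma-voom called 0, beside 0%, and limma-voom with quality weights called 0, beside 0.225%. At an unadjusted p under 0.05 edgeR gave 1 member, Casp14, where the background was 5.33% of genes. For 0 of the 10 did the 3 CKO libraries lie wholly above or below the 3 CTRL libraries, beside 10.5% of all genes tested. The log2 fold changes, CKO over CTRL, were positive for 8 members and negative for 2, with a median of 0.25 beside a median of -0.01 over all genes tested. Of all genes tested, 47.8% had a positive log2 fold change.

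The libraries held 17256339 to 20776539 counts, and the smallest count of any member was 403 (Prss8 in CTRL 1). Counting error was therefore small beside the spread between CTRL libraries. This holds less clearly for the closest CKO values, those of St14, with a coefficient of variation of 4.98%. The 10 members together took 0.388%, 0.302% and 0.343% of all counts in CKO 1 to 3 and 0.236%, 0.370% and 0.294% in CTRL 1 to 3. The targeted gene Ufl1 was at 34.9, 35.6 and 38.8 CPM in CKO 1 to 3, against 57.9, 47.0 and 46.1 CPM in CTRL 1 to 3. CPM are counts scaled to library size, with TMM factors. All CKO libraries were below all CTRL libraries for Ufl1, which did not pass over all genes (edgeR, adjusted p = 0.778). Defining markers of suprabasal keratinocytes were abundant in every library, with Krt10 between 4251 and 5757 CPM in CKO and between 3449 and 4955 CPM in CTRL ears.

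**Figure D1:**
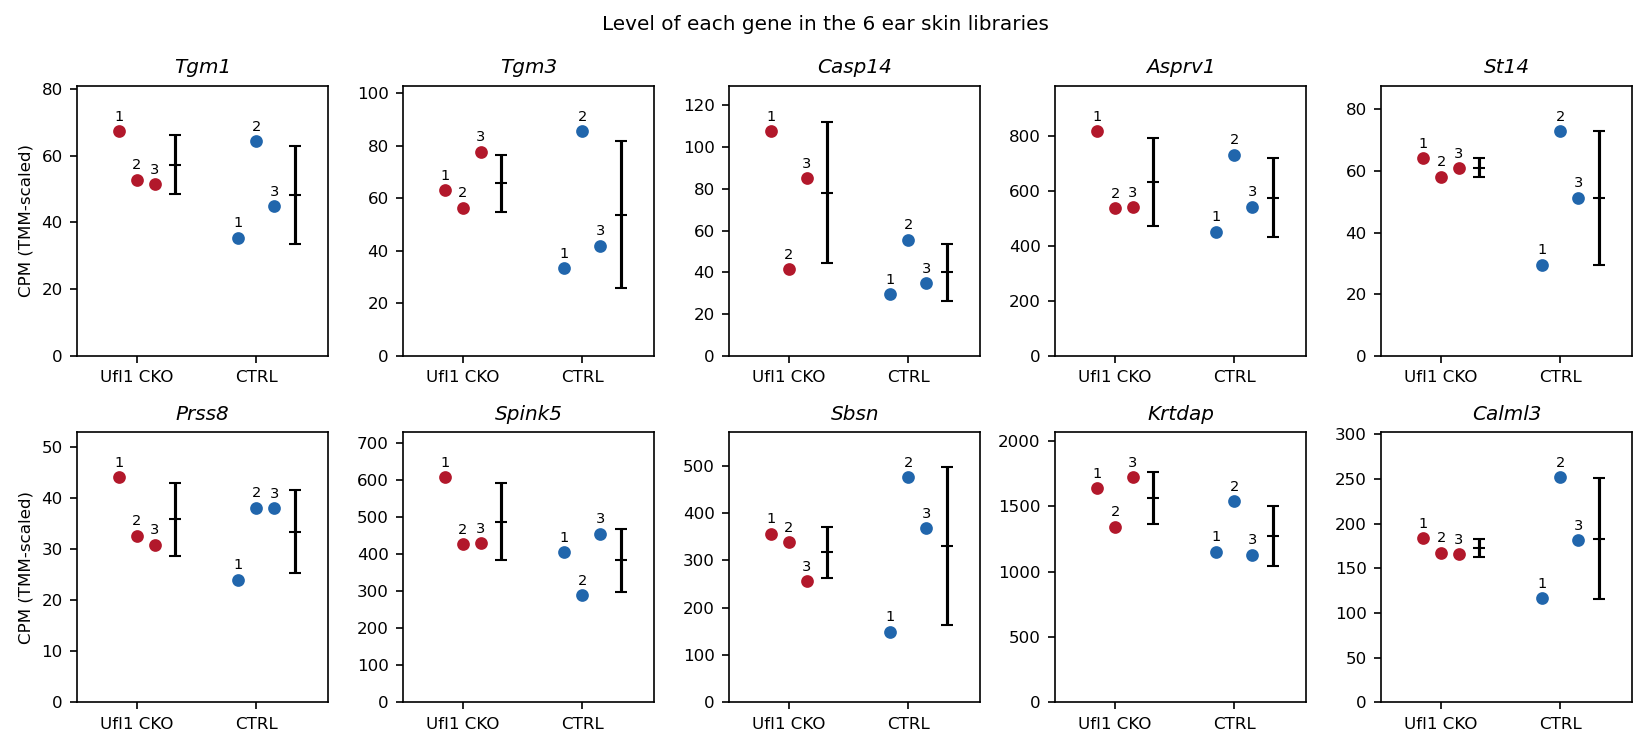
Level of each of the 10 genes in TMM-scaled CPM (y axis, from 0), with CKO libraries in red left of CTRL libraries in blue. Numbers name the libraries, and the black bars give the mean and SD of each group (n = 3). The groups overlap in every panel, and CTRL 1 is the lowest of the 6 libraries for 8 genes.

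The genes differed widely in level. Per kilobase of gene length, on the deposited FPKM scale, Krtdap stood first in both groups and was the gene with rank 11 of all 54532 by mean FPKM. Its level was 2291 ± 292 FPKM in CKO and 1856 ± 321 FPKM in CTRL ears (SD, n = 3 each). Asprv1 came next, with 406 ± 102 FPKM in CKO and 368 ± 88.6 FPKM in CTRL ears (SD, n = 3 each). Its range did not overlap that of Krtdap or of Calml3 in either group. Calml3, Spink5 and Sbsn followed, between 70.5 and 128 FPKM in the CKO and between 41.0 and 174 FPKM in the CTRL libraries, and neighbours in this order overlapped in both groups. Casp14, Prss8, Tgm1 and Tgm3 formed a lower set at 13.5 to 44.5 FPKM in CKO and 8.04 to 22.8 FPKM in CTRL libraries, again with overlapping neighbours. St14 had the lowest level, 7.94 ± 0.380 FPKM in CKO and 6.64 ± 2.77 FPKM in CTRL ears (SD, n = 3 each). Its range lay below that of Tgm3 in CKO ears and overlapped it in CTRL ears.

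The transglutaminases form the isopeptide bonds of the cornified envelope. Tgm1 (chromosome 14, 55700009 to 55713926, minus strand, mm10) encodes the membrane-anchored enzyme of the upper epidermis. It was at 67.4, 52.8 and 51.4 CPM in CKO 1 to 3, against 35.4, 64.2 and 44.8 CPM in CTRL 1 to 3. CTRL 2 lay within the CKO range, and the other CTRL libraries lay below it. Tgm1 had a log2 fold change of 0.25 (SE 0.23), a fold of 1.19 with a 95% interval of 0.827 to 1.71. Its log2 fold change was 0.12 without CKO 1, 0.065 without CTRL 1 and 0.51 without CTRL 2. Tgm3 (chromosome 2, 130012349 to 130050399, plus strand) encodes a cytosolic enzyme that is cleaved to become active and also acts in the hair follicle. It was at 63.0, 56.3 and 77.6 CPM in CKO 1 to 3, against 33.4, 85.6 and 42.0 CPM in CTRL 1 to 3. CTRL 2 was the highest of the 6 libraries and CTRL 1 the lowest. Tgm3 had a log2 fold change of 0.29 (SE 0.33), or 0.80 without CTRL 2 (adjusted p = 0.410 in edgeR) and 0.04 without CTRL 1. Summed markers of the inner root sheath and hair medulla (8 of 8 genes tested, 0 called by edgeR or DESeq2) were at 279, 106 and 150 CPM in CKO 1 to 3, against 201, 179 and 90.1 CPM in CTRL 1 to 3. Of these sums, Gata3 alone made up 64.6, 55.8 and 70.9 CPM in CKO 1 to 3 and 49.3, 106 and 67.9 CPM in CTRL 1 to 3. Gata3 had a negative log2 fold change (-0.22), and the other 7 genes had positive ones. The part of these markers in the level of Tgm3 was not tested. The ratio of Tgm3 to Tgm1 in CPM was 0.935, 1.07 and 1.51 in CKO 1 to 3 and 0.943, 1.33 and 0.937 in CTRL 1 to 3, so it overlapped as well.

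Casp14 and Asprv1 encode proteases of filaggrin processing. Casp14 (chromosome 10, 78711991 to 78718294, minus strand) encodes a caspase of cornifying keratinocytes that takes part in the breakdown of filaggrin. It showed the largest log2 fold change of the 10, at 107.6, 41.4 and 85.1 CPM in CKO 1 to 3, against 29.6, 55.5 and 34.7 CPM in CTRL 1 to 3. CKO 1 and CKO 3 were above all CTRL libraries, while CKO 2 was below CTRL 2. The means were 78.0 ± 33.7 CPM in CKO and 39.9 ± 13.7 CPM in CTRL ears (SD, n = 3 each). The log2 fold change was 0.96 (SE 0.36), a fold of 1.95 with a 95% interval of 1.09 to 3.48 before adjustment. Over all genes the difference failed correction, with an edgeR p of 0.0285 and, adjusted, 0.860, and with a DESeq2 adjusted p of 0.418. A two-sided exact permutation test of the log2 CPM gave p = 0.2, where 0.1 is the smallest that 3 libraries against 3 allow. For Casp14 the authors' deposited table lists a log2 fold change of 0.97 and an adjusted p of 0.405. The edgeR value was 0.66 without CKO 1, 0.90 without CKO 3, 0.79 without CTRL 1 and 0.87 without CTRL 3, with an unadjusted p in edgeR of 0.112, 0.0662, 0.0953 and 0.0924 in that order. Without CKO 2 it was 1.27 (unadjusted p in edgeR 0.00237, adjusted 0.480). Without CTRL 2 it was 1.28 (unadjusted p in edgeR 0.0244, adjusted 0.675).

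Asprv1 (chromosome 6, 86628164 to 86629710, plus strand) encodes SASPase, a retroviral-like aspartic protease that cuts the linkers of profilaggrin. It was at 817, 538 and 541 CPM in CKO 1 to 3, against 452, 731 and 543 CPM in CTRL 1 to 3, with a log2 fold change of 0.14 (SE 0.25). CKO 1 and CTRL 2 stood above the remaining 4 libraries. Set against Asprv1 in the same library, Casp14 was at 0.132, 0.0769 and 0.157 in CKO 1 to 3, against 0.0656, 0.0759 and 0.0639 in CTRL 1 to 3. This ratio did not overlap between groups, though CKO 2 and CTRL 2 were close. The exact permutation p was 0.1, and 0.6 after Benjamini-Hochberg adjustment over the 6 gene pairs examined, which were chosen after the levels had been seen.

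**Figure D2:**
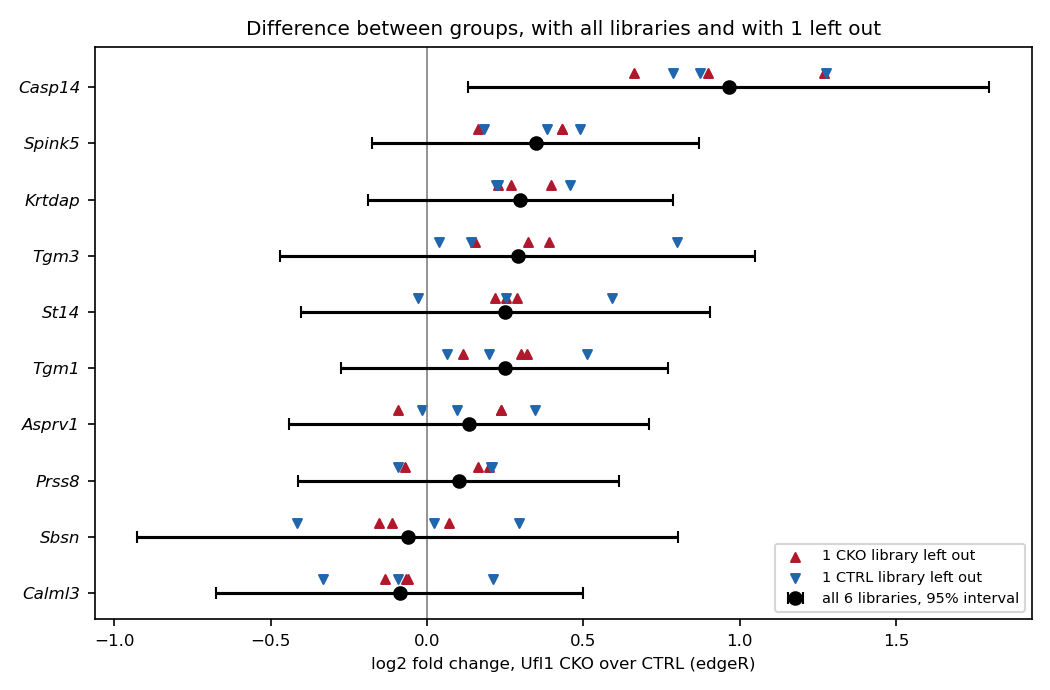
Log2 fold change of each gene, CKO over CTRL (x axis, edgeR), with its unadjusted 95% interval (black) and the values with 1 CKO library (red triangles) or 1 CTRL library (blue triangles) left out. Only the interval of Casp14 lies wholly above 0, and the points without 1 library fall on both sides of 0 for Asprv1, St14, Prss8, Sbsn and Calml3.

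The 3 genes of the serine protease cascade did not share one pattern. St14 (chromosome 9, 31089402 to 31131853, minus strand) encodes matriptase, a transmembrane protease that activates other epidermal proteases. It was at 64.1, 58.1 and 61.0 CPM in CKO 1 to 3, against 29.6, 72.9 and 51.3 CPM in CTRL 1 to 3. The CKO libraries were close to each other and lay between the extremes of the CTRL libraries. St14 had a log2 fold change of 0.25 (SE 0.28), with -0.03 without CTRL 1 and 0.59 without CTRL 2. Prss8 (chromosome 7, 127925716 to 127930104, minus strand) encodes prostasin, a membrane-anchored protease that acts with matriptase. It was at 44.1, 32.7 and 30.9 CPM in CKO 1 to 3, against 24.0, 38.2 and 38.0 CPM in CTRL 1 to 3. CTRL 2 and CTRL 3 lay inside the CKO range and CTRL 1 below it. The log2 fold change was 0.10 (SE 0.22), with a 95% interval of the fold from 0.752 to 1.53.

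Spink5 (chromosome 18, 43963235 to 44022501, plus strand) went against the other members within the CTRL group. It was at 607, 427 and 430 CPM in CKO 1 to 3, against 405, 290 and 456 CPM in CTRL 1 to 3. CTRL 2, the highest CTRL library for the other 9 members, was the lowest of the 6 for Spink5. The log2 fold change of Spink5 was 0.35 (SE 0.23), with an adjusted p of 0.981 in edgeR. It was 0.16 without CKO 1 and 0.18 without CTRL 2. The ratio of St14 to Spink5 was 0.106, 0.136 and 0.142 in CKO 1 to 3 and 0.0730, 0.252 and 0.112 in CTRL 1 to 3, a difference of -0.01 between the group means on the log2 scale. The CTRL libraries thus spanned a 3.45-fold range of this ratio and the CKO libraries a 1.34-fold range.

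Sbsn and Krtdap lie in one gene cluster on chromosome 7 and encode secreted proteins of the suprabasal layers. Sbsn (suprabasin; 30751471 to 30756134, plus strand) and Krtdap (keratinocyte differentiation-associated protein; 30787896 to 30791097, plus strand) lie on either side of Dmkn, a further member of the cluster.

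Krtdap was at 1636, 1342 and 1720 CPM in CKO 1 to 3, against 1153, 1537 and 1129 CPM in CTRL 1 to 3. Only CTRL 2 reached into the CKO range. The log2 fold change of Krtdap was 0.30 (SE 0.21), a fold of 1.23 with a 95% interval of 0.878 to 1.72, and lay between 0.22 and 0.46 when single libraries were left out. Sbsn was at 356, 338 and 256 CPM in CKO 1 to 3, against 149, 475 and 368 CPM in CTRL 1 to 3. Its CTRL libraries spanned a 3.19-fold range, with the CKO libraries inside it. For Sbsn the log2 fold change was -0.06 (SE 0.37), with -0.42 without CTRL 1 and 0.29 without CTRL 2. The ratio of Krtdap to Sbsn was 4.59, 3.97 and 6.71 in CKO 1 to 3 and 7.73, 3.23 and 3.07 in CTRL 1 to 3. It was highest in CTRL 1 and CKO 3. Calml3 (chromosome 13, 3802896 to 3804316, minus strand), a calmodulin-like calcium-binding protein of epithelial cells, was at 184, 167 and 166 CPM in CKO 1 to 3, against 116, 252 and 181 CPM in CTRL 1 to 3. For Calml3 the log2 fold change was -0.09 (SE 0.25), with -0.33 without CTRL 1 and 0.21 without CTRL 2.

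Reads could be shared with other genes at 3 members, and whether counting used strand is not stated in any source used here. In GENCODE M21, Tgm1 shares 182 exonic bases with Gm49067 and Prss8 shares 122 with Kat8, both on the opposite strand. Sbsn shares 279 exonic bases with Tmem147os on the same strand.

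Across libraries, irrespective of genotype, most members moved together. After each gene's log2 CPM was centred on its mean over the 6 libraries, the mean of the 10 was 0.37, -0.04 and 0.10 in CKO 1 to 3 and -0.58, 0.26 and -0.12 in CTRL 1 to 3. CTRL 1 was the lowest of the 6 libraries for 8 members, and CTRL 2 the highest CTRL library for 9. CKO 1 was the highest CKO library for 8. The CTRL libraries spread more than the CKO libraries for 8 of the 10 members, with median coefficients of variation of 16.7% in CKO and 32.4% in CTRL ears. Among all 11033 genes with a mean of at least 10 CPM, 77.2% spread more in the CTRL libraries, with medians of 8.72% in CKO and 16.9% in CTRL ears.

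**Figure D3:**
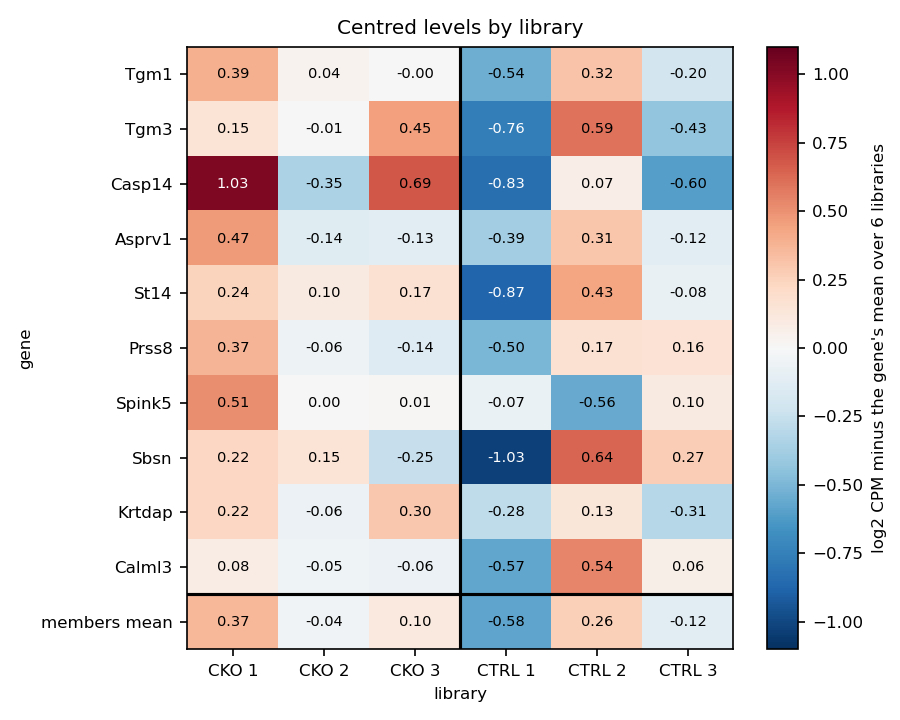
Centred log2 CPM of each gene (rows) in each library (columns, CKO left of CTRL), with the mean of the 10 in the last row. CTRL 1 is blue in every row, from -1.03 for Sbsn to -0.07 for Spink5, and Spink5 is the one member below its mean in CTRL 2, at -0.56.

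The members most alike were Tgm1 and Asprv1, whose centred profiles had a root mean square difference of 0.12 log2 units over the 6 libraries. Casp14 and Sbsn were the least alike, at 0.70. Against the mean of the other members, Tgm1 was the closest at 0.08, and Casp14 (0.50) and Spink5 (0.46) were the farthest. Among 15877 other genes with a mean of at least 1 CPM, the 5 with profiles closest to the mean of the members were Zfp750 (0.05), Sbno2 (0.05), Rnf208 (0.05), Nectin1 (0.06) and Gm960 (0.06 log2 units), beside a median of 0.39. Zfp750, a transcription factor of terminal epidermal differentiation, was at 107.6, 85.7 and 98.2 CPM in CKO 1 to 3, against 58.8, 101 and 80.4 CPM in CTRL 1 to 3. Its log2 fold change was 0.28 (SE 0.20).

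Marker genes of the epidermis and of the dermis moved between libraries as well. The summed suprabasal keratinocyte markers (5 of 5 tested, 0 called by edgeR or DESeq2) were at 13172, 9849 and 11246 CPM in CKO 1 to 3, against 7263, 14171 and 9651 CPM in CTRL 1 to 3. The order of the 6 libraries by this sum differed from that by the summed members only in whether CKO 1 or CTRL 2 stood first. Fibroblast markers (6 of 6 tested, 0 called by either tool) were at 21552, 21657 and 20435 CPM in CKO 1 to 3, against 25370, 9655 and 15561 CPM in CTRL 1 to 3. They were highest in CTRL 1, where 8 members were lowest, and lowest in CTRL 2. Basal keratinocyte markers (6 of 6 tested, 0 called by edgeR and 1 by DESeq2) were at 6155, 5278 and 7036 CPM in CKO 1 to 3, against 3227, 11346 and 5100 CPM in CTRL 1 to 3. The DESeq2 call was Krt15, a keratin of basal and hair follicle bulge cells, at 213, 247 and 374 CPM in CKO 1 to 3, against 445, 1375 and 730 CPM in CTRL 1 to 3. All CKO libraries were below all CTRL libraries, with an adjusted p of 0.0103 in DESeq2 and 0.650 in edgeR.

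**Figure D4:**
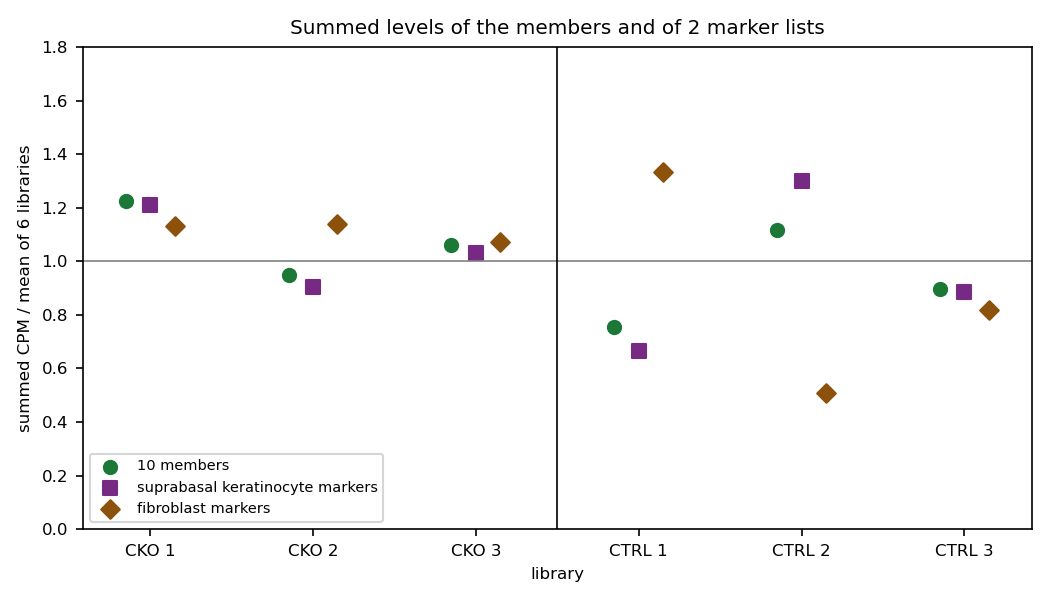
Summed CPM of the 10 members (circles), of suprabasal keratinocyte markers (squares) and of fibroblast markers (diamonds) in each library, divided by their mean over the 6 libraries (y axis, from 0). Fibroblast markers stand at 1.33 in CTRL 1 and 0.507 in CTRL 2, where the members stand at 0.753 and 1.12. Fibroblast markers and members both stand above their mean in CKO 1 and CKO 3 and below it in CTRL 3.

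Levels were therefore also set against Krt10, a keratin of the suprabasal layers, in the same library, a comparison chosen after the levels had been seen. The spread of the CTRL libraries on the log2 scale became smaller for 9 of 10 members, Spink5 being the exception, and that of the CKO libraries for 6 of 10. Tgm1 per Krt10 ranged 1.16-fold within CKO and 1.26-fold within CTRL ears, where Tgm1 alone ranged 1.31-fold and 1.81-fold. The median log2 difference between the groups became 0.06, with 6 members positive and 4 negative. Krt10 itself had an edgeR log2 fold change of 0.23 (SE 0.25), and the ratio takes the difference of Krt10 off that of each member. Differences per Krt10 are between group means of log2 ratios, so they do not equal the edgeR values less 0.23. The result may depend on the keratin chosen. Krt1 and Krt2, also suprabasal markers, had log2 fold changes of 0.83 (SE 0.43) and -0.04 (SE 0.38), and ratios to them were not examined. Casp14 per Krt10 kept the largest difference, 0.68 on the log2 scale, at 0.0187, 0.00973 and 0.0177 in CKO 1 to 3, against 0.00860, 0.0112 and 0.00821 in CTRL 1 to 3. The groups overlapped for all 10 ratios, and the smallest two-sided exact permutation p was 0.2, or 0.889 after adjustment over the 10.

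Other genes of the pathway were compared through 8 lists of 75 genes, of which 71 were tested. Over these lists 0 genes were called by edgeR, 1 by DESeq2 (Slpi, adjusted p = 0.0113), and 9 had an unadjusted p under 0.05 in edgeR as higher and 1 as lower, beside 5.33% of all genes tested in either direction. The median log2 fold change was 0.23, with 53 genes positive and 18 negative, where 47.8% of all genes tested were positive. For 11 of the 71 the groups did not overlap, beside 10.5% of all genes tested.

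The tissue kallikreins, which cut corneodesmosomes, had positive log2 fold changes for 8 of 8 tested genes, with a median of 0.50. CKO 1 was the highest CKO library for each of these 8. The 10 listed kallikreins summed to 924, 584 and 584 CPM in CKO 1 to 3, against 507, 539 and 517 CPM in CTRL 1 to 3. Klk5 was at 89.8, 65.3 and 70.1 CPM in CKO 1 to 3, against 49.3, 64.6 and 54.2 CPM in CTRL 1 to 3, a log2 fold change of 0.42 (SE 0.17). The groups did not overlap, by a small margin between CKO 2 and CTRL 2. Klk6 was at 73.0, 20.3 and 15.1 CPM in CKO 1 to 3, against 12.3, 5.0 and 15.3 CPM in CTRL 1 to 3, so that CKO 1 stood apart. Neither passed over all genes in edgeR (adjusted p = 0.894 for Klk5 and 0.857 for Klk6). Of 7 tested protease inhibitors 6 were positive, with a median of 0.62. Slpi, a secreted inhibitor of leukocyte proteases, was at 40.9, 10.5 and 8.54 CPM in CKO 1 to 3, against 5.25, 3.20 and 4.25 CPM in CTRL 1 to 3. Wfdc5 was at 32.9, 25.7 and 30.2 CPM in CKO 1 to 3, against 17.1, 23.2 and 17.5 CPM in CTRL 1 to 3. The CKO libraries were above the CTRL libraries for both, with edgeR adjusted p of 0.650 for Slpi and 0.764 for Wfdc5. Neutrophil markers (4 of 6 tested, 0 called by edgeR or DESeq2, Ly6g at 0 in all CKO libraries) summed to 416, 43.4 and 68.8 CPM in CKO 1 to 3, against 78.6, 6.60 and 14.8 CPM in CTRL 1 to 3. Their part in the high values of CKO 1 was not tested.

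Among membrane serine proteases and their targets, 8 of 12 genes were positive, with a median of 0.15. Tmprss4, a transmembrane serine protease, was at 75, 49.3 and 55.5 CPM in CKO 1 to 3, against 28.4, 40.2 and 37.4 CPM in CTRL 1 to 3. The groups did not overlap, and its log2 fold change was 0.76 (SE 0.20; edgeR adjusted p = 0.650). Scnn1a, a subunit of the epithelial sodium channel, had a log2 fold change of 0.33 (SE 0.16). The log2 fold changes of all 9 genes of filaggrin processing were positive, with a median of 0.23. Blmh, a cysteine protease that degrades filaggrin peptides, was at 172, 124 and 129 CPM in CKO 1 to 3, against 111, 103 and 101 CPM in CTRL 1 to 3. Its groups did not overlap (log2 fold change 0.43, SE 0.16; edgeR adjusted p = 0.857). Padi1, a deiminase, had few counts, with 47, 22 and 14 in CKO 1 to 3, against 12, 10 and 18 in CTRL 1 to 3. The groups overlapped for Padi1, and its log2 fold change was 1.12 (SE 0.53; edgeR adjusted p = 0.949).

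Substrates of the cornified envelope had a median log2 fold change of 0.09, with 6 of 8 positive. Flg, the gene of profilaggrin, was at 331, 262 and 301 CPM in CKO 1 to 3, against 95.5, 270 and 97.7 CPM in CTRL 1 to 3. CTRL 2 reached into the CKO range, and the log2 fold change of Flg was 0.95 (SE 0.39; edgeR adjusted p = 0.913). Rptn (repetin) had a log2 fold change of 1.82 (SE 1.1), with 100.6 CPM in CKO 1 and 2.01 to 16.4 CPM in the other 5 libraries. Other suprabasal secreted and calcium-binding proteins had 7 of 8 positive and a median of 0.26. Dmkn, which lies between Sbsn and Krtdap, was at 1887, 1505 and 1442 CPM in CKO 1 to 3, against 787, 1381 and 1380 CPM in CTRL 1 to 3, a log2 fold change of 0.45 (SE 0.26), and Lypd3 had one of 0.52 (SE 0.23). Regulators of terminal differentiation were divided, with 7 of 14 positive and a median of 0.10. Hopx, a homeodomain protein, had the smallest p of these, with a log2 fold change of 0.33 (SE 0.14; edgeR adjusted p = 0.933). The 5 tested genes of the transglutaminase family had a median of -0.16. Tgm7 had 3, 8 and 0 counts in CKO 1 to 3, against 27, 25 and 31 counts in CTRL 1 to 3 (edgeR adjusted p = 0.653), and Tgm2 had a log2 fold change of 0.36 (SE 0.20).

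**Figure D5:**
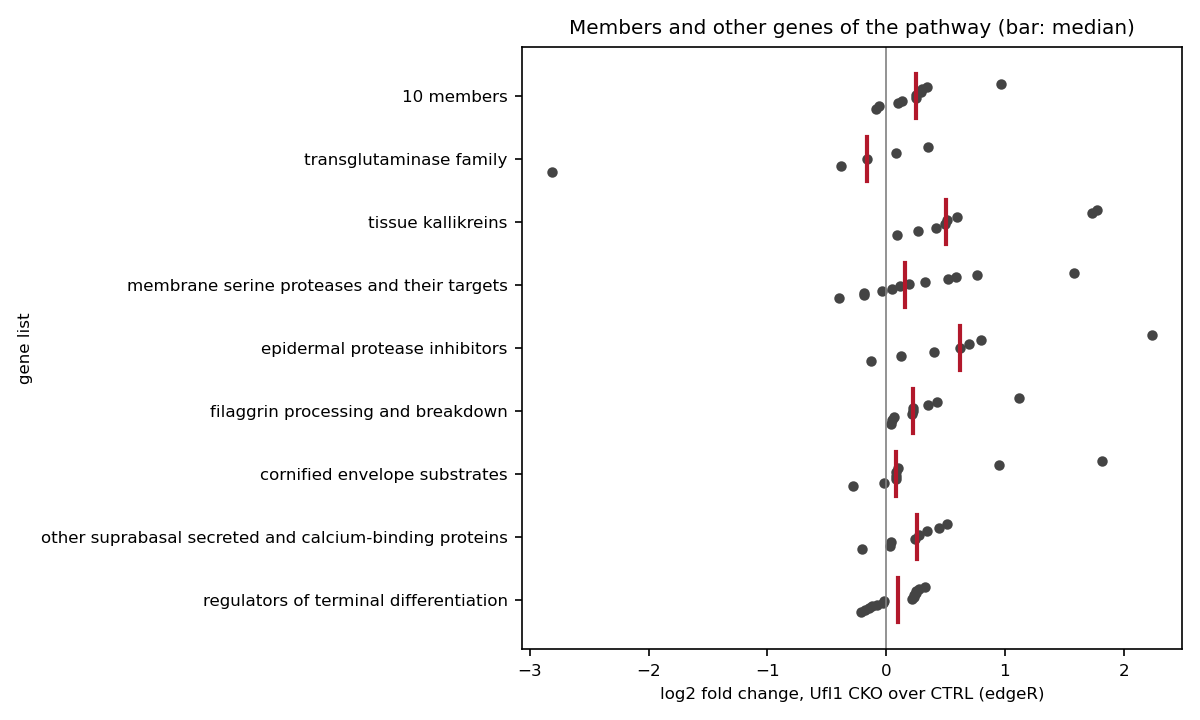
Log2 fold change, CKO over CTRL (x axis, edgeR), of the 10 members and of the tested genes of 8 other lists (rows), with each list's median as a red bar. The medians lie between -0.16 (transglutaminase family) and 0.62 (epidermal protease inhibitors), and that of the members is 0.25.

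Markers of other cell types in the ear were measured as well. Sebaceous gland markers (7 tested, 0 called by edgeR and 2 by DESeq2) summed to 822, 813 and 947 CPM in CKO 1 to 3, against 579, 926 and 710 CPM in CTRL 1 to 3. Of the 7, 3 had a positive and 4 a negative log2 fold change. Most of the sum came from Plin2 and Soat1, so it says little about the other genes of the list. Soat1 was at 218, 230 and 329 CPM in CKO 1 to 3, against 171, 407 and 194 CPM in CTRL 1 to 3. The DESeq2 calls went in opposite directions. Scd3, a stearoyl-CoA desaturase, was at 2.90, 0.444 and 2.30 CPM in CKO 1 to 3, against 15.4, 39.3 and 16.7 CPM in CTRL 1 to 3, with an adjusted p of 1.23e-07 in DESeq2 and 0.309 in edgeR. Plin2, a lipid droplet protein, was at 440.1, 435 and 469 CPM in CKO 1 to 3, against 275, 288 and 308 CPM in CTRL 1 to 3, with an adjusted p of 0.000691 in DESeq2 and 0.529 in edgeR. The groups did not overlap for either gene, nor for Mc5r, the remaining such gene of the 7. Melanocyte markers (6 tested, 1 called higher by edgeR, Tyrp1, and 6 called by DESeq2) summed to 164, 179 and 250 CPM in CKO 1 to 3, against 41.8, 46.1 and 59.4 CPM in CTRL 1 to 3. T cell markers (6 tested, 0 called by either tool) summed to 21.3 to 48.9 CPM in CKO and 22.1 to 26.1 CPM in CTRL ears. Skeletal muscle markers (5 tested, 0 called by either tool) summed to 1472 to 4093 CPM in CKO and 1947 to 5117 CPM in CTRL ears. Cartilage markers (4 of 5 tested, 0 called by either tool) summed to 804 to 1418 CPM in CKO and 707 to 1418 CPM in CTRL ears. Their part in the members' levels was not tested.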

How the data were processed

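Total RNA from ear skin was extracted with TRIzol and made into libraries with a NEBNext Ultra kit, per the labels' protocols. The submitters' processing notes name HISAT2, HTSeq and mm10 but no version or parameter. Counts per gene were deposited as whole numbers and not normalized. They also deposited FPKM values, each of which equals the count divided by gene length and by 1 library size of 97.6% to 104% of the total count. The same table holds the authors' mean normalized count per group (a signal value), their log2 fold changes, and their p-values and adjusted p-values, per the file headers. No test is named for them.

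Of 54532 genes, 17318 passed filterByExpr. CKO and CTRL were compared by edgeR 4.0.16 under R 4.3.3 (quasi-likelihood, robust, TMM, no covariate), and p-values were adjusted by Benjamini-Hochberg over all genes tested. The SE was taken as the absolute log2 fold change over the root of the F statistic. Intervals are 95%, from the SE and the fit's degrees of freedom. Log2 CPM used a prior count of 2. Alternatives were other scalings and filters, DESeq2 1.42.0, limma-voom (limma 3.58.1) with and without quality weights, a replicate block, and leaving out each library. Every pair of libraries within a group differed beyond sampling noise (lowest chi-square over its degrees of freedom, 17.9). Members and lists were chosen with earlier results of these data known. Genes named outside the members are the 2 with the smallest p in each list and the 5 with the closest profile, and any other gene was chosen after its values were seen.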

Additional observations from a re-analysis of the deposited data

How the results depend on the processing

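Under the 15 other settings, 0 members were called. The median log2 fold change of the members lay between 0.01 and 0.40 when single libraries were left out and between 0.22 and 0.29 under the other 9 settings. Genes called higher and lower over the whole table were 2 and 1 in edgeR, 18 and 7 with no filter beyond 1 count, 67 and 24 in DESeq2, 0 and 0 in limma-voom (564 and 327 at an unadjusted p under 0.05), and 29 and 10 with quality weights. With single libraries left out, edgeR called 0 to 2 genes higher and 0 to 2 lower. At an unadjusted p under 0.05, quality weights gave 4 members (Krtdap, Tgm3, Casp14 and Tgm1), beside 1494 genes higher and 1211 lower of 17318. At that cutoff edgeR without CTRL 2 gave 5 members (those 4 and St14), beside 773 genes higher and 449 lower of 17718. With no filter beyond 1 count, or without CKO 1, CKO 3, CTRL 1 or CTRL 3, edgeR gave 0 members. The remaining settings gave Casp14 alone.

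Sbsn turned positive in limma-voom (0.10) and with the replicate block (0.064). Per Krt10, Asprv1 was at -0.10 and Prss8 at -0.12. With single libraries left out, the log2 fold change ran from -0.091 to 0.35 for Asprv1, -0.092 to 0.21 for Prss8, -0.029 to 0.59 for St14, -0.42 to 0.29 for Sbsn and -0.33 to 0.21 for Calml3. The cause was not tested. The other 5 members kept their direction in all settings. With single libraries left out they ran from 0.065 to 0.51 for Tgm1, 0.04 to 0.80 for Tgm3, 0.66 to 1.28 for Casp14, 0.16 to 0.49 for Spink5 and 0.22 to 0.46 for Krtdap, and per Krt10 they were 0.05, 0.17, 0.68, 0.12 and 0.07.

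Whether the replicate numbers pair the libraries is not stated in the labels, and 3 libraries a group cannot decide it. Deviations from the group means correlated at 0.216, -0.0431 and -0.0380 across genes for numbers 1 to 3. CKO 1 correlated best with its own number, and CKO 2 and CKO 3 did not. The fit with the replicate block called 10 genes higher and 2 lower. With 3 libraries a group, the intervals of 9 members include no change and reach folds of 1.41 to 2.07 upward and 0.886 to 0.526 downward.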

Other observations

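For Casp14 and Spink5, the members farthest from the rest, the genes with the closest profiles over the 6 libraries were listed after these values had been seen. Spink5 was nearest to P3h1, Med12l, Col15a1, Dusp6 and Tcn2, at root mean square differences of 0.09 to 0.10 log2 units. Col15a1, which encodes a basement membrane collagen, was at 94.2, 77.0 and 74.5 CPM in CKO 1 to 3, against 73.2, 48.9 and 70.0 CPM in CTRL 1 to 3. P3h1, which encodes a collagen prolyl hydroxylase, was at 49.5, 41.2 and 40.4 CPM in CKO 1 to 3, against 39.5, 25.2 and 41.5 CPM in CTRL 1 to 3. Both had their lowest value in CTRL 2, as Spink5 did. Casp14 was less closely matched, with Cnbd2, Adam8, Atp13a4, Elf5 and Lilrb4a at 0.18 to 0.21 log2 units. Adam8, a metalloprotease gene, was at 25.3, 11.2 and 29.9 CPM in CKO 1 to 3, against 9.31, 15.1 and 11.1 CPM in CTRL 1 to 3. Like Casp14, it was high in CKO 1 and CKO 3 and lower in CKO 2 than in CTRL 2. None of these 10 genes passed over all genes in edgeR (adjusted p of 0.849 to 0.997).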
